A study of Homo sapiens with 6 samples.

Results

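FGL1 (fibrinogen-like 1), FGL2 (fibrinogen-like 2) and the 3 fibrinogen chain genes FGA, FGB and FGG were followed in SW480 cells after knockdown of gankyrin. These 5 genes, of 19775 genes named on the arrays, were taken with all of their probe sets that are annotated to 1 gene, which gave 9 of 54613 probe sets. The family was chosen with it known that FGL1 has the lowest difference of all genes in this same contrast, so the members' differences between the groups are given below as a description, with no p-value.

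The study set 3 arrays from SW480 cells given an shRNA against gankyrin (shGankyrin) against 3 arrays from SW480 cells given a non-targeting shRNA (shControl), each after 4 days. SW480 is an established human colon carcinoma cell line, kept in medium with fetal bovine serum, and the cells of both groups were infected with an shRNA. The labels name 1 knockdown condition without saying how many hairpins were used or whether the cells were a pool or a clone, and they do not say whether replicates were separate cultures. What the p-values weigh is thus array-to-array spread, possibly of technical origin alone. The deposited design text once gives NFIL3 as the target, whereas titles and genotype labels of the 3 arrays give gankyrin.

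Fibrinogen is a hexamer of paired alpha, beta and gamma chains, which hepatocytes make, secrete into plasma and increase in the acute phase response through interleukin-6 and STAT3. Thrombin cleaves it to fibrin, the mesh of a clot. FGL1 (also called hepassocin) and FGL2 share the globular fibrinogen domain of the beta and gamma chains. FGL1 is mainly a hepatocyte product that binds the inhibitory T cell receptor LAG3, and some tumours make it. FGL2 exists as a membrane prothrombinase and as a secreted immunoregulator that binds the receptor FCGR2B.

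The gene that was to be lost was lower on every knockdown array. PSMD10, which encodes gankyrin, had log2 signals of 6.58, 6.47 and 6.30 on the shGankyrin arrays, against 10.19, 10.23 and 10.15 on the shControl arrays (probe set 219485_s_at, log2 difference -3.74 ± 0.08 SE, limma adjusted p = 6.81e-09, n = 3 per group). The array medians lay between 4.20 and 4.25. On shControl replicate 3 the beta-actin control probe set at the 3' end exceeded the one at the 5' end by 1.82 on the log2 scale, while on the other 5 arrays this gap was 0.43 to 0.53. Differences without that array are given below for FGL1 and some other genes. Those of further genes moved as well, such as SERPINE2 from -1.55 to -1.47 and CD276 from -0.52 to -0.43. The mean of the 18S ribosomal RNA control probe sets was 6.46 to 6.77 on shGankyrin arrays and 5.64 to 5.69 on shControl arrays, and its part in the differences below was not tested. Most epithelial markers were bright in both groups. The keratin genes KRT8 and KRT18 and the adhesion gene EPCAM averaged 10.99, 12.99 and 12.20 on shGankyrin arrays. On shControl arrays they averaged 11.11, 13.05 and 12.20. The intestinal transcription factor CDX2 was low at 4.12 ± 0.32 and 4.19 ± 0.07 (shGankyrin and shControl, SD, n = 3 each). The cadherin gene CDH17 was also low, at 3.84 ± 0.11 and 3.57 ± 0.06 (same order).

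FGL1 gave a clear signal in control cells and a low one after knockdown. Its only probe set, 205305_at, read 3.73, 4.33 and 4.33 on shGankyrin arrays 1 to 3, against 8.26, 8.50 and 8.48 on shControl arrays 1 to 3. The groups lay far apart, and the lowest of the 6 values was that of shGankyrin replicate 1. FGL1 averaged 4.13 ± 0.35 in shGankyrin cells and 8.41 ± 0.13 in shControl cells (SD, n = 3 each), a log2 difference of -4.28 ± 0.17 (SE), or 19.5-fold. Leaving out any 1 array moved the log2 difference only between -4.38 and -4.08, and without shControl replicate 3 it was -4.25. FGL1 had no second probe set on the array, so no other part of its transcript was read.

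The low end of the scale bounds how far that fold can be read. As a description of that end, 181 probe sets of 146 olfactory receptor, keratin-associated and lens crystallin genes, which colon cells are not known to use, had a median mean signal of 3.01 and a 95th percentile of 5.21. The shGankyrin mean of FGL1 lay between these values, and the shControl mean lay above both. No detection calls were used here, so FGL1 cannot be called absent from the knockdown cells, and the remaining signal may include background.

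**Figure D1:**
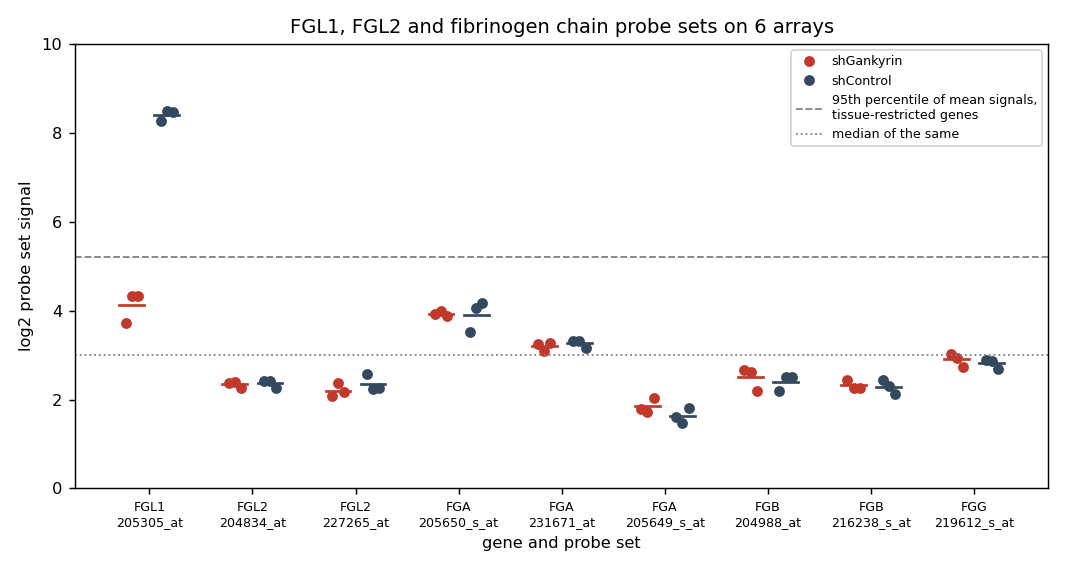
Log2 signal (vertical axis) of the 9 probe sets of FGL1, FGL2, FGA, FGB and FGG (horizontal axis); points are arrays, shGankyrin on the left of each pair and shControl on the right, and short bars are group means. The dashed line is the 95th percentile (5.21) and the dotted line the median (3.01) of the tissue-restricted genes' mean signals; only the shControl values of FGL1, from 8.26 to 8.50, stand above the dashed line.

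The relatives of FGL1 gave low signals in both groups, and none showed a comparable gap. In such bulk samples fewer expressing cells and less RNA per cell cannot be told apart, for FGL1 as for the genes below. FGL2 read 2.38, 2.40 and 2.26 on shGankyrin arrays, against 2.42, 2.42 and 2.25 on shControl arrays, with probe set 204834_at. Its second probe set, 227265_at, averaged 2.20 ± 0.16 and 2.36 ± 0.18 (shGankyrin and shControl, SD, n = 3 each). Both FGL2 probe sets thus overlapped between the groups and lay below the median of the tissue-restricted genes.

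FGA, the alpha chain whose fibrinopeptide thrombin removes first, was read by 3 probe sets. The brightest, 205650_s_at, had 3.93, 3.99 and 3.87 on shGankyrin arrays, against 3.51, 4.06 and 4.17 on shControl arrays, a log2 difference of 0.02 ± 0.17 (SE). The shControl values enclosed those of the knockdown. The other FGA probe sets, 231671_at and 205649_s_at, differed by -0.07 and 0.22 on the log2 scale, and their groups overlapped.

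FGB, the beta chain, and FGG, the gamma chain that carries a main platelet-binding end, gave the same picture. FGB averaged 2.50 ± 0.27 in shGankyrin and 2.40 ± 0.18 in shControl cells on 204988_at, and 2.32 ± 0.11 and 2.29 ± 0.15 on 216238_s_at (SD, n = 3 each). FGG read 3.03, 2.94 and 2.74 on shGankyrin arrays, against 2.90, 2.86 and 2.68 on shControl arrays. All 3 fibrinogen chains, which lie next to each other in the genome, therefore were at the low end in both groups, and no probe set of these genes was called. Only FGA 205650_s_at was bright enough to be tested, so for FGB and FGG the test gives no answer.

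Only 2 of the 9 probe sets, FGL1 205305_at and FGA 205650_s_at, were past the filter on low signals, which left out the lowest 40% of probe sets (mean over all 6 arrays up to 3.60). Of those 2, 1 was called at an adjusted p under 0.05 in the limma fit across probe sets, FGL1, where 10.6% of 32759 probe sets were called in either direction and 6.54% as lower. Group values were free of overlap at 1 of the 9, beside 26.3% of all 54613 probe sets and 40.3% of the 14199 genes tested. FGL1 was chosen on this contrast, so its call was fixed by that choice and neither count tells anything further about the family.

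Among all 54613 probe sets the FGL1 probe set ranked 1 from the lowest difference, and 4 probe sets in all were at least 8-fold lower. The genes that followed FGL1 in this order were PSMD10 itself at -3.74, the matrix metalloproteinase gene MMP10 at -2.72 and the engulfment adaptor gene GULP1 at -2.69 on the log2 scale.

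**Figure D2:**
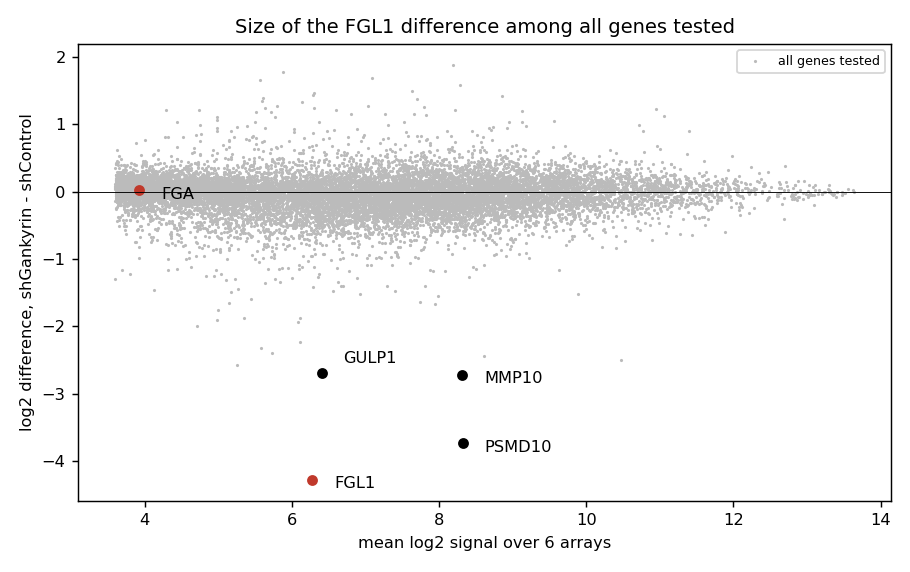
Log2 difference, shGankyrin minus shControl (vertical axis), against mean log2 signal over the 6 arrays (horizontal axis) for the 14199 genes tested, 1 point per gene. FGL1 at -4.28 lies below PSMD10 at -3.74 and well apart from MMP10 and GULP1, while FGA at 0.02 lies in the middle of the cloud.

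By Pearson correlation over the 6 arrays, the genes whose pattern was most like that of FGL1 were SMOC2 (r = 0.9992), ROCK2 (0.9980), GULP1 (0.9975), MTUS1 (0.9972) and PKIB (0.9966). SMOC2, a matricellular protein gene, read 3.93, 4.07 and 4.11 on shGankyrin arrays, against 5.86, 5.99 and 5.98 on shControl arrays, so that shGankyrin replicate 1 and shControl replicate 1 were the lowest of their groups, as for FGL1. The most opposite patterns were those of the centromere gene CENPM (r = -0.9990), the coenzyme Q synthesis gene PDSS1 (-0.9970) and the mitochondrial ribosome gene MRPL39 (-0.9962). With 2 groups of 3 arrays such a correlation mostly restates the gap between the groups: 585 of 14198 genes had r above 0.95 and 430 had r below -0.95.

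MTUS1, a microtubule-associated tumour suppressor gene, is also the measured gene that directly precedes FGL1 on chromosome 8 in the RefSeq gene order of GRCh38.p14, and its neighbours were therefore examined. The look at position, with the 3 nearest measured genes on each side, was added after seeing the data. Before FGL1, the amino acid transporter gene SLC7A2, the receptor-like gene PDGFRL and MTUS1 fell by 0.85, 0.81 and 1.17 on the log2 scale (limma adjusted p = 7.18e-05, 0.00135 and 3.86e-06). After FGL1, the centriolar satellite gene PCM1 fell by 0.57 and the acetyltransferase gene NAT1 by 0.52 (limma adjusted p = 3.98e-04 and 0.00732), whereas ASAH1, the acid ceramidase gene between them, was at -0.10 and did not pass (adjusted p = 0.325). So 5 of 6 neighbours fell, beside 14.3% of the 14199 genes tested (22.5% were called in either direction).

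The wider stretch around FGL1 was lower as well. Of the 31 measured genes on each side of FGL1, 62 in all, 41 fell and 1 rose, with a median log2 difference of -0.47 and an interquartile range from -0.68 to -0.10. The 31 genes between FGL1 and the chromosome end included 22 falls, and the 31 genes on its other side 19. Per array, the median deviation of these 62 genes from each gene's mean over the 6 arrays was -0.17, -0.18 and -0.23 on shGankyrin arrays, against 0.16, 0.21 and 0.28 on shControl arrays. All 3 knockdown arrays thus lay below all 3 control arrays, by a similar amount. Without shControl replicate 3 the count of falls was again 41 and the median difference -0.42.

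The lower stretch began with the first measured genes of chromosome 8. In blocks of 25 consecutive measured genes, each of the first 6 blocks of chromosome 8, from FBXO25 to CHRNA6, held 12 to 18 falls, and over these 150 genes 98 fell (65.3%), FGL1 among them by its choice, and 1 rose, with a median of -0.46. Over the remaining 289 genes of the chromosome, from THAP1 on, 21 fell (7.27%) and 84 rose (29.1%), with a median of 0.13, while over all genes tested 14.3% fell and 8.13% rose. The boundary between these parts is a block edge picked after seeing the values, so these counts are a description. It does not mark the exact turn: just beyond it RNF170, HOOK3, FNTA and HGSNAT fell by 0.29, 0.76, 0.59 and 0.67 on the log2 scale and are counted in the second part. The cathepsin gene CTSB, a lysosomal protease gene in the same stretch, read 7.95, 7.92 and 7.84 on shGankyrin arrays, against 8.96, 8.95 and 9.14 on shControl arrays, and the palmitoyltransferase gene ZDHHC2 read 5.79, 5.89 and 5.80, against 7.14, 7.31 and 7.45.

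FGL1 was chosen for its low difference, so its place below its neighbours is no finding. After FGL1, the lowest genes of the 150 were ZDHHC2 at -1.47, TNFRSF10D, a decoy receptor gene for TRAIL, at -1.34, and the claudin gene CLDN23 at -1.32. Copy number of chromosome 8 was not measured in these data, and the part of this regional shift in the FGL1 difference was not tested.

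The other members lay in stretches without such a shift in the median. Of the 62 measured genes around FGL2 on chromosome 7, 14 fell and 6 rose, with a median log2 difference of 0.0017. Of the 62 around the fibrinogen cluster on chromosome 4, 7 fell and 7 rose, with a median of 0.0050. Over all genes tested 14.3% fell and 8.13% rose, and over chromosome 7 19.3% fell. The share of falls around FGL2 was thus above that of all genes.

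**Figure D3:**
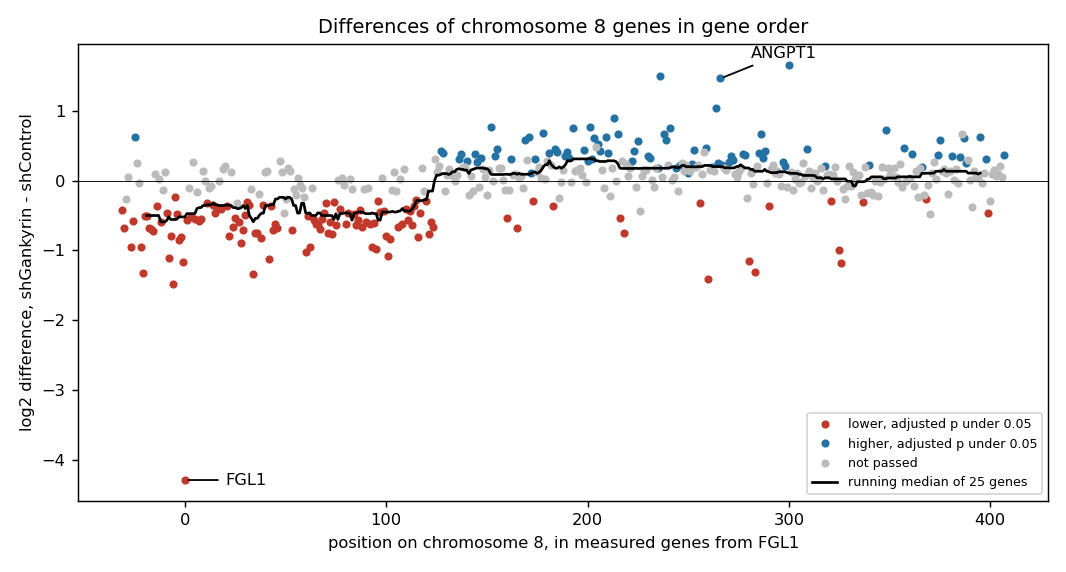
Log2 difference, shGankyrin minus shControl (vertical axis), of the 439 measured genes of chromosome 8 in gene order, counted from FGL1 (horizontal axis); red points fell, blue points rose and grey points did not pass at a limma adjusted p under 0.05, and the line is the running median of 25 genes. The line lies below 0 around FGL1 and crosses to above 0 farther on, and FGL1 is marked at -4.28.

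Other genes that carry a fibrinogen domain were examined as relatives by structure. The list holds 19 genes, of angiopoietins, angiopoietin-like proteins, ficolins and tenascins, and 9 passed the filter; 1 rose and 0 fell (all genes tested: 8.13% rose and 14.3% fell), with a median log2 difference of -0.01. The gene that rose was ANGPT1, the ligand of the endothelial receptor TIE2, which read 7.13, 6.99 and 6.99 on shGankyrin arrays, against 5.69, 5.86 and 5.18 on shControl arrays (log2 difference 1.46 ± 0.15 SE, limma adjusted p = 2.20e-04, and 1.26 without shControl replicate 3). With probe sets of the suffixes _s_at and _x_at avoided, ANGPT1 was at 0.94 and again passed. ANGPT1 lies in the second part of chromosome 8, where 25 of its 62 measured neighbours rose, 5 fell and the median was 0.18. FIBCD1, a chitin receptor gene, and ANGPT4 were at -0.26 and -0.05 and did not pass (limma adjusted p = 0.144 and 0.786), nor did the tenascin gene TNC at -0.31 (adjusted p = 0.0689).

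Fibrinogen is the substrate on which the coagulation and fibrinolysis cascades act, and genes of these cascades were called in both directions. Of 19 tested, 2 rose, 6 fell and 11 did not pass, with a median of -0.10, beside 8.13% of all genes that rose and 14.3% that fell. SERPINE2, an inhibitor of thrombin and plasminogen activators, read 7.29, 7.34 and 7.01 on shGankyrin arrays, against 8.63, 8.74 and 8.93 on shControl arrays (log2 difference -1.55 ± 0.11 SE, limma adjusted p = 1.69e-05). PLAU, the urokinase gene, fell by 0.65 from a low signal, and PROCR, the endothelial protein C receptor gene, fell by 0.49. S100A10, a partner of annexin A2 in binding plasminogen, rose by 0.38.

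The other 4 calls of this list depended on single arrays and on the probe sets used. The transglutaminase gene TGM2, at -0.54, was not called without shGankyrin replicate 2 (limma adjusted p = 0.0592), and with its probe sets averaged it was at -0.22 (limma adjusted p = 0.140). The thrombin receptor gene F2R, at -0.37, was not called without shGankyrin replicate 1 or 2 or shControl replicate 2 (limma adjusted p = 0.0863, 0.0640 and 0.0510). F2R was at 0.01 with probe sets of the suffixes _s_at and _x_at avoided and at -0.18 with its probe sets averaged (limma adjusted p = 0.971 and 0.205). TFPI, the tissue factor pathway inhibitor gene, at -0.23, was not called without shGankyrin replicate 1 or 3 or shControl replicate 1 or 2 (limma adjusted p from 0.0556 to 0.143). Averaged over its probe sets TFPI turned to 0.07 (limma adjusted p = 0.693), and it was not called without an intensity trend or with arrays centred (limma adjusted p = 0.0811 and 0.0530). The factor V gene F5, at 0.23, was not called without shGankyrin replicate 1, 2 or 3 (limma adjusted p = 0.0588, 0.0704 and 0.0921) or with arrays centred (0.0586). With probe sets of the suffixes _s_at and _x_at avoided F5 turned to -0.08 (limma adjusted p = 0.648), whereas with its probe sets averaged it was at 0.32 and passed (limma adjusted p = 0.00804). ANXA2 and the factor XII gene F12 did not pass, at -0.09 and -0.10 (adjusted p = 0.0837 and 0.412).

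Among receptors through which cells bind fibrinogen or FGL proteins, 8 were tested. Of these 0 rose and 3 fell, beside 14.3% of all genes that fell, and the median was 0.10, so list median and calls differ in sign. ICAM1, an adhesion molecule that fibrinogen bridges to leukocyte integrins, read 6.90, 6.89 and 6.96 on shGankyrin arrays, against 7.53, 7.67 and 7.44 on shControl arrays (log2 difference -0.63 ± 0.08 SE, limma adjusted p = 7.95e-04). ITGAV and ITGB1, integrin subunit genes, fell by 0.43 and 0.22; ITGB1 did not pass once probe sets with the suffixes _s_at and _x_at were avoided (-0.28, limma adjusted p = 0.105) or with its probe sets averaged (-0.20, limma adjusted p = 0.301). ITGAM and ITGA2B did not pass, at 0.34 and 0.08 (adjusted p = 0.0759 and 0.651). LAG3, the T cell receptor for FGL1, did not pass the filter and averaged 3.37 ± 0.38 and 3.64 ± 0.19 (shGankyrin and shControl, SD, n = 3 each). FCGR2B, the receptor for FGL2, was also below the filter, at 3.54 ± 0.13 and 3.54 ± 0.04.

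In the liver, interleukin-6 signalling through STAT3 raises FGL1 and the fibrinogen chains. Of 10 tested genes of that pathway 0 rose and 1 fell, with a median of -0.09 (all genes tested: 8.13% rose and 14.3% fell). STAT3 read 8.53, 8.58 and 8.49 on shGankyrin arrays, against 8.79, 8.92 and 9.13 on shControl arrays (log2 difference -0.41 ± 0.09 SE, limma adjusted p = 0.00773). The groups did not overlap, and without shControl replicate 3 the difference was -0.32 and again passed. The transcription factor gene CEBPB and the kinase gene JAK1 were at -0.15 and -0.17 and did not pass (limma adjusted p = 0.0636 and 0.119). The receptor genes IL6R and IL6ST were at 0.03 and 0.14, also without passing, and IL6 itself was below the filter. Leaving out shControl replicate 1 gave 3 calls in this list and leaving out shControl replicate 3 gave 2.

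Acute phase plasma proteins that the liver secretes together with fibrinogen did not move as 1 group. Of 9 tested, 1 rose and 1 fell, with a median of 0.06 (all genes tested: 8.13% rose and 14.3% fell). LCN2, an iron-scavenging lipocalin gene, read 8.91, 9.11 and 9.38 on shGankyrin arrays, against 10.38, 10.40 and 11.18 on shControl arrays (log2 difference -1.52 ± 0.19 SE, limma adjusted p = 6.18e-04, and -1.26 without shControl replicate 3). SERPINA3, the antichymotrypsin gene, rose by 0.47. SERPINA1, the gene of alpha-1-antitrypsin, had 12.78 ± 0.05 in shGankyrin and 12.84 ± 0.05 in shControl cells (SD, n = 3 each) and did not pass, and the hemopexin gene HPX was at 0.14 without passing (limma adjusted p = 0.302 and 0.528). CRP, HP, ORM1, CP and ITIH3 were below the filter. Of the 18 genes of this list, 14 had a probe set annotated to 1 gene. The serum amyloid A genes SAA1, SAA2 and SAA4, and ORM2, had none and were not read.

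Transcription factors of liver and gut, which drive hepatocyte genes such as the fibrinogens, were mostly not called. Of 11 tested, 0 rose and 2 fell, near the 14.3% of all genes that fell, with a median of -0.13. PROX1, a homeobox factor of hepatocyte and lymphatic identity, read 4.27, 4.76 and 3.94 on shGankyrin arrays, against 6.14, 5.94 and 5.84 on shControl arrays (log2 difference -1.65 ± 0.18 SE, limma adjusted p = 2.88e-04). The shGankyrin values of PROX1 all lay below the 95th percentile of the tissue-restricted genes (5.21) and the shControl values above it. Background may thus limit the size of this difference. NR5A2, the nuclear receptor LRH-1, fell by 0.81; with its probe sets averaged the difference was -0.58 and did not pass (limma adjusted p = 0.0950). GATA6 and FOXA2, at -0.13 and -0.17, did not pass (adjusted p = 0.345 and 0.308).

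The promoters of the family were searched for short motifs of such factors. RefSeq promoters (250 bases before to 50 after the gene start, GRCh38.p14) were present for 4 of the 5 members. The promoter of FGL1 was missing, so the search does not cover FGL1. The 4 promoters were read on both strands for the HNF1 half-site GTTAAT, which 6.89% of 27305 promoters of the same length hold. They were also read for the STAT motif TTCNNNGAA (7.88%) and the C/EBP motif TTGCNNAAT (2.74%). FGA held 1 match of each, FGB held 1 HNF1 half-site, and FGG and FGL2 held no match in this window. The stretches are shown so that each match can be read in its context; capitals mark the match, which is a description and not a site.
FGA, HNF1 half-site on the opposite strand, chr4:154590762-154590821, minus strand: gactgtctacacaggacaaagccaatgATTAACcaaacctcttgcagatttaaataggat
FGB, HNF1 half-site on the opposite strand, chr4:154562902-154562961, plus strand: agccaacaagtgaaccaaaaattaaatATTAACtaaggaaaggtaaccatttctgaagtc
FGA, STAT motif, chr4:154590938-154590992, minus strand: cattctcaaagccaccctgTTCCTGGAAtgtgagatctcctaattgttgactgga
FGA, C/EBP motif on the opposite strand, chr4:154590849-154590911, minus strand: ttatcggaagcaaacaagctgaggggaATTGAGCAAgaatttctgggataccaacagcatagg

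Ligands that, like FGL1, restrain T cells or other immune cells were also examined, in a list that includes the enzyme gene IDO1. Of 11 tested, 1 rose and 3 fell, with a median of -0.14 (all genes tested: 8.13% rose and 14.3% fell). LGALS3, the galectin-3 gene whose product is another ligand of LAG3, read 10.04, 10.13 and 10.12 on shGankyrin arrays, against 10.54, 10.52 and 10.42 on shControl arrays (log2 difference -0.40 ± 0.05 SE, limma adjusted p = 8.43e-04). CD276 (B7-H3) fell by 0.52 on its brightest probe set, but was at -0.02 with its probe sets averaged (limma adjusted p = 0.954). NECTIN2, a ligand of the receptors TIGIT and CD226, fell by 0.32 and was not called without shGankyrin replicate 2 or 3 (limma adjusted p = 0.0584 and 0.0526) or with its probe sets averaged (-0.15, limma adjusted p = 0.169). HHLA2, a B7 family gene, rose by 0.81 and stayed at a low signal of 4.72 ± 0.15, against 3.91 ± 0.12 in shControl cells (SD, n = 3 each). CD47 and PVR did not pass (-0.01 and -0.14, adjusted p = 0.917 and 0.278), and neither did CD274, the PD-L1 gene, at -0.18 (adjusted p = 0.230).

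**Figure D4:**
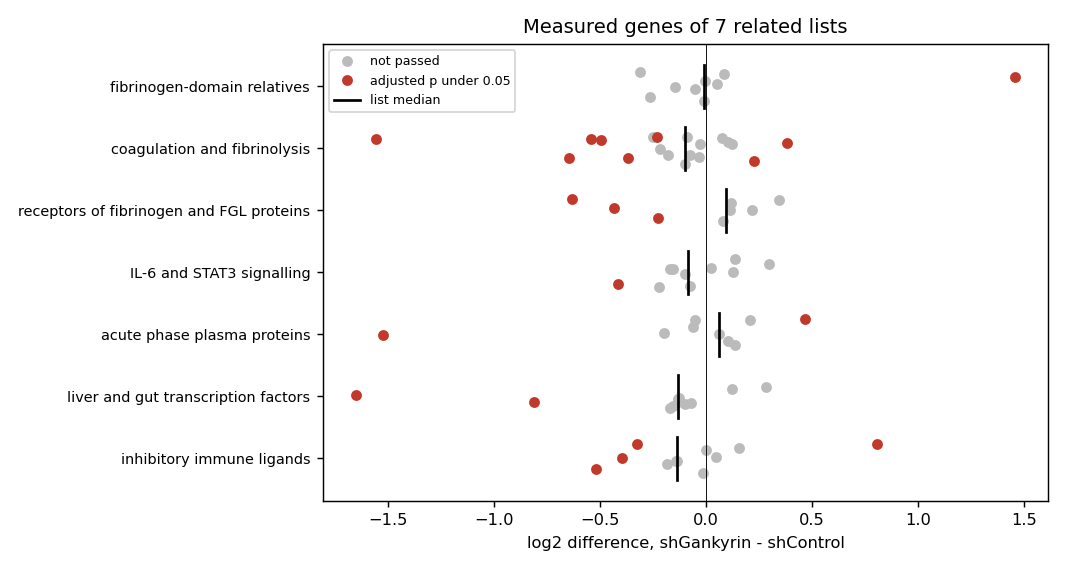
Log2 difference, shGankyrin minus shControl (horizontal axis), of the tested genes of 7 related lists (vertical axis), 1 point per gene; red points passed a limma adjusted p under 0.05, grey points did not, and black bars are list medians. The list medians lie between -0.14 and 0.10, and the widest values are PROX1 at -1.65, SERPINE2 at -1.55, LCN2 at -1.52 and ANGPT1 at 1.46.

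FGL1 and the fibrinogens are hepatocyte genes, so markers of hepatocytes and of other cell types were read beside them. Of 20 hepatocyte markers on the array, 4 in shGankyrin and 3 in shControl cells lay above the 95th percentile of the tissue-restricted genes. Those above it in both groups were APOH, at 10.39 and 10.52, TTR, at 6.22 and 6.13, and CYP3A4, at 6.08 and 6.33 (shGankyrin and shControl means). The summed signal of all 20 was 10.74 to 10.81 on shGankyrin arrays and 10.80 to 10.93 on shControl arrays (log2 of the sum). APOH made up most of this sum, which therefore says little about the other markers. Of the 12 hepatocyte markers tested, 1 rose (AMBP, by 0.77) and 1 fell (RBP4, by 0.74), beside 8.13% of all genes that rose and 14.3% that fell. Both had low signals: AMBP averaged 5.52 in shGankyrin and 4.76 in shControl cells, and RBP4 4.32 and 5.06. Only the shGankyrin mean of AMBP lay above the 95th percentile of the tissue-restricted genes (5.21). The albumin gene ALB was at 2.49 ± 0.09 in shGankyrin and 2.46 ± 0.13 in shControl cells (SD, n = 3 each), at the low end. Of 9 leukocyte and endothelial markers, 1 lay above that percentile in each group, the lysozyme gene LYZ, and PTPRC, the leukocyte gene CD45, averaged 2.63 ± 0.13 and 2.66 ± 0.30. The summed signal of these 9 was 12.20 to 12.38 on shGankyrin arrays and 12.33 to 12.39 on shControl arrays. Most of it came from LYZ, which averaged 12.27 in shGankyrin and 12.31 in shControl cells, so it says little about the other markers. Of the 5 tested, 0 passed in limma at an adjusted p under 0.05, and 0 had an unadjusted p under 0.05. Of 10 colon epithelial markers, 8 lay above the 95th percentile of the tissue-restricted genes in each group, all but CDX2 and CDH17. All 10 were tested, and 1 rose and 3 fell, with a median of -0.06 (all genes tested: 8.13% rose and 14.3% fell). The microvillus gene VIL1 rose by 0.82, and the keratin genes KRT20 and KRT19 and the E-cadherin gene CDH1 fell by 0.66, 0.46 and 0.64 on the log2 scale. The summed signal of the 10 markers was 14.38 to 14.42 on shGankyrin arrays and 14.47 to 14.50 on shControl arrays. The part of these epithelial shifts in the FGL1 difference was not tested.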

How the data were processed

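The series table, deposited as log2 signals, covers 54675 probe sets (62 of them controls) on 6 arrays and was used as the authors scaled it. MAS5 is named in the submitters' processing notes with neither role nor version; how signals were summarised and scaled is not stated in the labels, and the log2 scale was read from the values (1.29 to 13.68). Probe sets were named from the platform annotation and RefSeq symbols of GRCh38.p14. Of the others 41091 had 1 gene, 1801 several and 11721 none here. Control probe sets and the lowest 40% by mean over all 6 arrays were left out, and each gene was read from its brightest probe set with 1 gene (14199 genes). The contrast was fitted in R 4.3.3 by limma 3.58.1 (linear model, eBayes with trend, two-sided, Benjamini-Hochberg over all genes, threshold 0.05; tested on simulated data). "Rose" and "fell" mean past that threshold. Named were PSMD10, the members, called list genes, up to 2 bright others per list, the 5 most and 3 least correlated genes and the 3 genes next in difference; genes at FGL1's position, and a few receptors and markers, were named for their role. Members and lists were chosen with earlier results of these data known. Replicate numbers gave deviations correlated at 0.02, 0.11 and -0.01 and were not taken as pairs. For arrays, their number (3 per group) limits precision. No column was left unmapped (0).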

Additional observations from a re-analysis of the deposited data

How the results depend on the processing

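FGL1 stayed between -4.38 and -4.08 over 13 alternatives, and PSMD10 was called in all 15, between -3.81 and -2.95. The 62 neighbours of FGL1 held 30 to 41 falls over the 15 alternatives, all chosen for them after seeing the data, with medians from -0.55 to -0.36. The count of genes called, 3189, was 1732 to 4161 with 1 array left out and 2403 to 3329 under the other settings, and 3049 with the replicate block; the numbers pair no samples, and the block moved no count by over 1.5 times. With 1 array left out, called genes numbered 5 to 9 for coagulation and 1 to 3 for IL-6 and STAT3 signalling, and 1 to 2 for fibrinogen-domain relatives. Relatives had 2 calls without the low-signal filter and 2 with probe sets averaged; averaging gave 1 call among liver and gut factors and 2 among inhibitory ligands. IL-6 and STAT3 signalling had 2 calls without an intensity trend and 2 with quantile normalization. The cause of these moves was not tested. FGL2, FGB and FGG lay below the low-signal filter, so their changes were not tested.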

Other observations

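Outside chromosome 8, long runs of falling genes were found on chromosome 20. Of 390 measured genes there, 141 fell (36.2%) and 7 rose, with a median log2 difference of -0.17. Of 504 blocks of 25 consecutive measured genes over all chromosomes but Y and the mitochondrial one, 9 held at least 13 falls, 5 of them on chromosome 8 and 4 on chromosome 20; the block median was 3 falls, and 0 blocks held at least 13 rises. PROCR and TGM2, coagulation genes that fell, lie on chromosome 20, where 22 and 26 of the 62 measured genes around them fell. Chromosomes other than 8 and 20 had falls in 10.8% to 19.3% of their genes (Y and mitochondrial genes aside). These runs were noticed in the data and carry no test.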
